A study of Mus musculus with 3 samples.

Results

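The spots described here are the part of a healing skin wound, 14 days after injury, that was richest in the RNA of 10 matrix and fibroblast genes. On the Day 14 section, 689 of the 697 spots marked as tissue held 500 or more UMIs (unique molecular identifiers, each counted as 1 captured RNA molecule). Each was scored by the share of its UMIs that came from Tnc, Timp1, Lox, Loxl2, Plod2, Thbs2, Col12a1, Vcan, Mmp14 and Lrrc15. The 103 spots with the highest share, 15% of those used, are called score-high spots, and the remaining 586 are the other spots. The series held 3 sections of wounded dorsal skin from C57BL/6J mice, 1 each from Day 3, Day 7 and Day 14 after a full-thickness punch wound, with 1910 marked spots and 1748 spots of 500 or more UMIs in all. All 3 sections came from wounded skin and no separate section of unwounded skin is analysed here. The sections also take in intact skin and muscle around the wound, so the other spots are a mixture of wounded and intact tissue. The mice received no further treatment that the labels name. A Visium spot is a small disc of tissue section that can hold several cells of different types, so the values are those of regions and not of cells.

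Wound repair first fills the gap with granulation tissue, in which fibroblasts lay down a provisional matrix rich in tenascin C, versican and periostin. In the later remodelling phase, fibrillar collagen accumulates, is crosslinked by lysyl oxidases and is trimmed by metalloproteases, and the scar that results lacks hair follicles. Myofibroblasts, fibroblasts that carry smooth muscle actin, contract the wound in between and become fewer as it closes. Lrrc15 is a surface protein of matrix-producing fibroblasts that TGF beta induces, and it is used as a marker of activated fibroblasts. The 10 score genes are mostly genes by which the study named its granulation fibroblasts in single-cell data, so the score marks matrix-producing tissue without telling granulation tissue from scar. No per-spot annotation of the wound site was used here, and the spots are therefore named by their score alone.

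With 1 section a day there is no replicate, and no test between conditions can be made. Spots of 1 section share the animal, the section and the library. Levels are therefore pooled values: the UMIs of a gene summed over a group of spots, per 1000000 UMIs of that group (CPM). Ranges beside them are exact 95% Poisson intervals, and ranges beside a log2 ratio are exact conditional binomial 95% intervals. Both cover counting error only. The score-high spots held 564817 UMIs and the other spots 4045000. The median depth per spot was 4490 UMIs against 4899 UMIs. The mitochondrial share was 4.05% of UMIs against 5.83%. The marked UMIs of the Day 3, Day 7 and Day 14 sections numbered 1772259, 4442962 and 4611723. In spots, fewer cells of a type and less RNA per cell cannot be told apart.

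The score of the score-high spots ran from 1908 to 5577 CPM, with a median of 2380 CPM. The nearest spots inside the limit stood at 1908, 1922 and 1954 CPM, and the nearest outside at 1907, 1904 and 1904 CPM, so the limit cuts through a continuous range. The score rests on few molecules. A score-high spot held a median of 11 UMIs of the 10 genes, 63 of the 103 held 10 or more, and 9 held under 5. When the UMIs of every spot were divided at random into equal parts and the top 15% taken from each, 53 spots were chosen by both. The first part chose 76 of the 103. In the UMIs that had not chosen them, the score genes stood at 2349 CPM in the chosen spots and 1007 CPM in the rest, a log2 ratio of 1.22 (1.10 to 1.35), against 1.58 (1.49 to 1.66) when all UMIs both chose and measured.

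The score genes themselves are given as a description, since they chose the spots. Thbs2, a thrombospondin that restrains vessel growth and shapes collagen fibrils, stood at 561 CPM (501 to 627) in score-high spots and 119.7 CPM (109 to 131) in the others. It ranged per spot from 0 to 2252 CPM with a median of 347, and 75 of the 103 spots held at least 1 UMI. Mmp14, the membrane-bound collagenase that also activates Mmp2, stood at 230.2 CPM (192 to 273) against 38.1 CPM (32.3 to 44.6), the widest ratio of the 10 (log2 2.60). It was detected in 51 of the 103 spots, so its median per spot was 0. The collagenase inhibitor Timp1 stood at 133 against 43.3 CPM, and Lrrc15 at 428 against 145 CPM. Col12a1, a collagen that sits on fibril surfaces, stood at 382 against 139 CPM. The crosslinking enzymes Lox and Loxl2 stood at 296 against 111 CPM and at 257 against 106 CPM. Tenascin C (Tnc), at 313 against 136 CPM, and versican (Vcan), at 198 against 97.9 CPM, were the provisional matrix genes of the score. Plod2, the lysyl hydroxylase of collagen telopeptides, contributed next to nothing. It had 3 UMIs in score-high spots and 21 in the others, 5.31 against 5.19 CPM.

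In the deposited layout, epidermis lay along the upper edge of the section and muscle along its lower edge. The score-high spots were not scattered evenly between them. Of the neighbours of a score-high spot on the hexagonal grid, 37.8% were score-high too, against 11.1% of the neighbours of another spot. They formed 31 connected groups. The largest had 37 spots and the next 22, together 57.3% of all score-high spots. The next patch had 8, another 5 patches had 2 to 4 spots each and 13 in all, and 23 spots had no score-high neighbour. The share in the 2 largest patches was 71.7% when the top 20% of spots were taken and 26.5% when each spot was thinned to 1000 UMIs before scoring. The division into patches was made after the map had been seen.

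**Figure D1:**
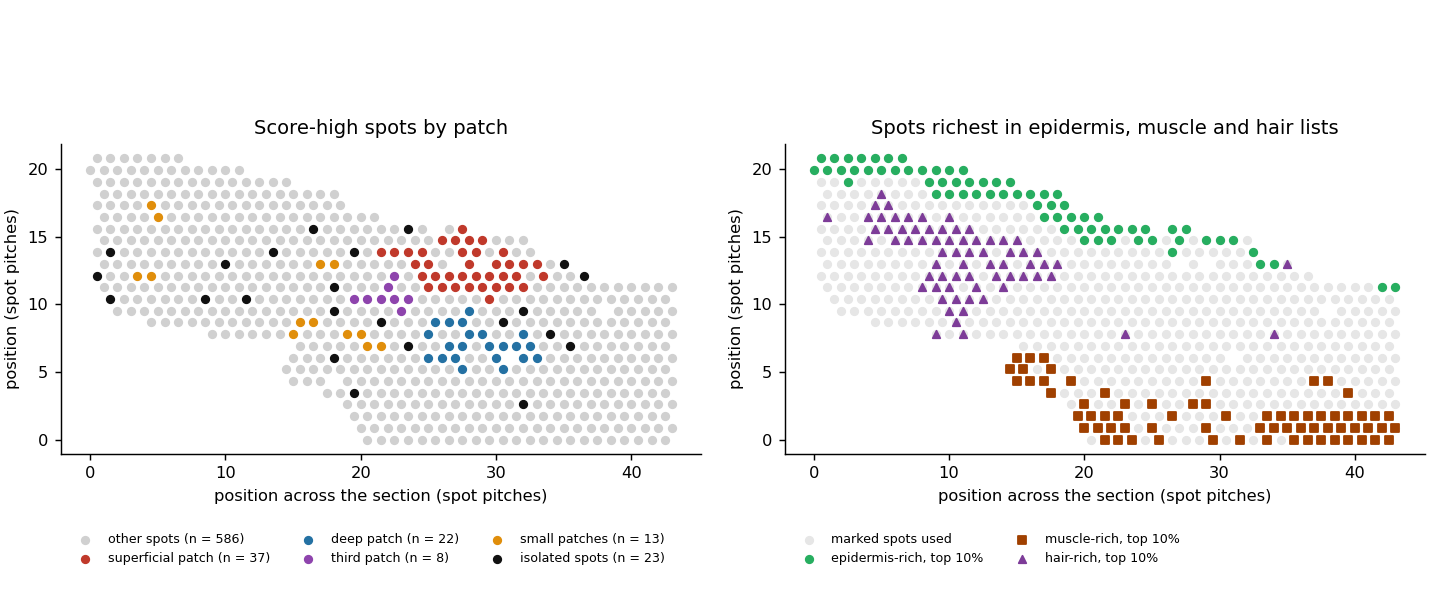
Left, the 689 Day 14 spots used, drawn at their grid positions in units of the distance between neighbouring spots, with the score-high spots coloured by patch; right, the same spots with the 10% richest in suprabasal epidermis, muscle and hair follicle lists marked. The 37-spot patch lies mostly just under the epidermis-rich spots, with 4 of its own spots among them. The 22-spot patch lies between it and the muscle-rich spots, while the hair-rich spots gather on the left.

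The 37-spot patch is called superficial and the 22-spot patch deep, from their distance to the 10% of spots richest in suprabasal epidermis and muscle genes. From the superficial patch the nearest epidermis-rich spot was a median of 1.73 spot pitches away and the nearest muscle-rich spot 8.72. From the deep patch the distances were 6.74 and 3.53. No spot of either patch was among the 10% richest in hair follicle genes, of which 62 were other spots and 7 were score-high spots in small patches or alone. Among the 10% richest in suprabasal epidermis genes, 5 were score-high spots, of which 4 lay in the superficial patch. Median depth was 5580 UMIs in the superficial patch, 4254 in the deep patch and 3526 in the isolated spots. The median score was 2688, 2818 and 2208 CPM in the same order.

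Outside the score genes, the score-high spots were marked by a broad set of collagen-related, matricellular and elastic fibre genes. Pooled keratin and mitochondrial RNA was lower in them, although the medians per spot of several keratins lay close in both groups. Of 10020 genes with 50 or more UMIs over both groups, 281 (2.80%) were at least 2 times higher in score-high spots and 340 (3.39%) at least 2 times lower, and the median log2 ratio of all 10020 was -0.03. Among the 281, the interval of 280 lay above equal levels and that of 62 lay above 2 times. Among the 340, the interval of 171 lay below equal levels and that of 5 below 2 times. The spots at the limit, the spots left alone and the choice of the other spots moved these counts, as set out in the closing section.

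**Figure D2:**
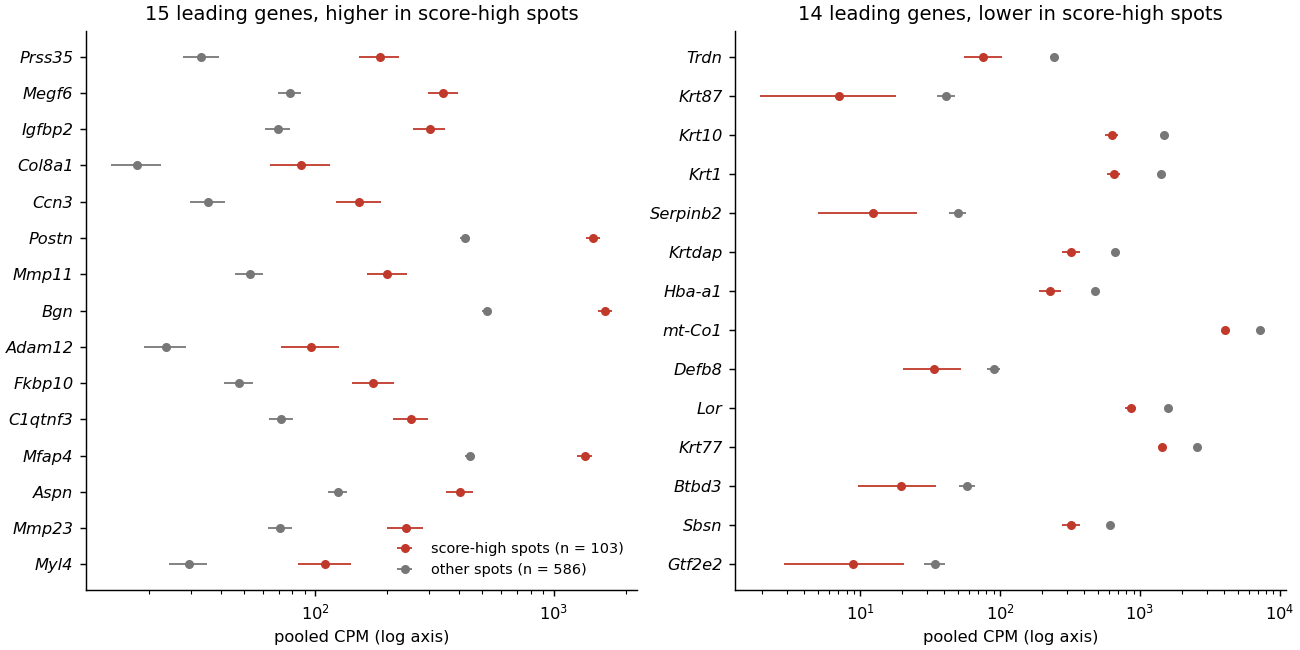
Pooled CPM on a log axis of the 15 genes highest and 14 of the 15 lowest in score-high spots, ranked by the interval bound nearer to equal levels among genes with 100 or more UMIs, score genes left out. Points are pooled values of the score-high and the other spots, and bars are 95% Poisson intervals for counting error only; Postn stood at 1461 against 423 CPM and Krt10 at 627 against 1484 CPM.

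Several of the 15 leading higher genes encode matrix proteins that fibroblasts secrete. Postn, the matricellular protein periostin that helps collagen crosslinking, stood at 1461 CPM (1363 to 1564) against 423 CPM. Per spot, Postn ran from 0 to 4531 CPM with a median of 819 in score-high spots and from 0 to 2463 CPM with a median of 342 in the others, so the groups overlapped. Biglycan (Bgn), a small proteoglycan that binds collagen, stood at 1638 against 522 CPM, with a median per spot of 1131 against 429 CPM. Mfap4, a protein of elastic microfibrils, stood at 1351 against 443 CPM, with a median per spot of 970.3 against 346 CPM. Aspn, a proteoglycan related to biglycan, stood at 404 against 124 CPM, and Fkbp10, a chaperone of collagen folding in the endoplasmic reticulum, at 175 against 47.7 CPM.

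The other leading genes were less abundant and unevenly placed. Prss35, which encodes a secreted protein of the serine protease family, ranked first by the bound nearer to equal levels, 186 against 33.1 CPM (log2 2.49, 2.11 to 2.87). Prss35 was detected in 40 of the 103 score-high spots and in 108 of the 586 others. Megf6 stood at 343 against 78.1 CPM and Igfbp2, which binds insulin-like growth factors, at 301 against 69.5 CPM. Mmp11 (stromelysin 3), Mmp23 and Adam12, all metalloproteases, stood at 200.1, 239 and 95.6 CPM against 52.9, 71.0 and 23.5 CPM. Col8a1, a short-chain collagen, stood at 86.8 against 17.8 CPM. It was detected in 17 of the 103 score-high spots, and 37 of its 49 UMIs there came from the deep patch. Ccn3, a matricellular protein of the CCN family, stood at 152 against 35.4 CPM. C1qtnf3, a secreted C1q-related protein, stood at 251 against 71.7 CPM, and Myl4, a myosin light chain of atrial and embryonic muscle, at 109.8 against 29.4 CPM.

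Ends of the ranking in the other direction were mostly epidermal. Krt10 and Krt1, keratins of the suprabasal epidermis, stood at 627 against 1484 CPM and at 649.8 against 1408 CPM. The cornified layer genes Lor, Sbsn and Krtdap stood at 857, 324 and 324 CPM against 1580, 612 and 667 CPM, and the keratin Krt77 at 1445 against 2536 CPM. Per spot, Krt10 had a median of 561 CPM in score-high spots and 609 CPM in the others, with highest values of 4077 and 14855 CPM. The medians lay close and the highest values far apart. For Krt77 the median was 1537 CPM in score-high spots and 1424 CPM in the others, with highest values of 3311 and 19665 CPM. Hair keratin Krt87 (7.08 against 41.3 CPM), Serpinb2 (12.4 against 49.9 CPM), the muscle gene Trdn (76.1 against 242 CPM) and haemoglobin Hba-a1 (228 against 478 CPM) were lower too. The mitochondrial transcript mt-Co1 stood at 4031 against 7182 CPM. Btbd3 stood at 19.5 against 57.8 CPM and Gtf2e2, a subunit of a general transcription factor, at 8.85 against 34.1 CPM. The defensin Defb8 stood at 33.6 against 90.2 CPM, and 21.6% of its UMIs came from 1 spot.

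The genes that lead lie on many chromosomes, in mm10 as annotated by GENCODE M21. Prss35 lies at chr9:86743649-86758443, Igfbp2 at chr1:72824503-72852474, Megf6 at chr4:154170730-154275713, Postn at chr3:54361109-54391037 and Ccn3 at chr15:54745702-54754039, all on the plus strand, and Mmp11 at chr10:75923222-75936496 on the minus strand. All 6 are protein-coding. RefSeq promoter windows (GRCm38.p6, 300 bases a gene) were found for 17 of the 25 genes made up of the score genes and the 15 leading higher genes. The TATA box letters TATAAA, on either strand, were in 5 of the 17 (Tnc, Thbs2, Postn, C1qtnf3 and Aspn) and in 15.7% of all genes with a window. The AP-1 site TGACTCA, on either strand, was in 2 of the 17 (Lrrc15 and Igfbp2) and in 5.95% of all. A match of letters is a description and not a site. As examples, the windows of Postn, high in both large patches, and of Lrrc15, highest in the superficial one, are given 5′ to 3′ on the strand of the gene with the matched letters in capitals. RefSeq gives Postn another start, whose window holds no TATAAA. The window shown for Postn is chr3:54360857-54361156 on the plus strand and that of Lrrc15 is chr16:30283205-30283504 on the minus strand.
Postn: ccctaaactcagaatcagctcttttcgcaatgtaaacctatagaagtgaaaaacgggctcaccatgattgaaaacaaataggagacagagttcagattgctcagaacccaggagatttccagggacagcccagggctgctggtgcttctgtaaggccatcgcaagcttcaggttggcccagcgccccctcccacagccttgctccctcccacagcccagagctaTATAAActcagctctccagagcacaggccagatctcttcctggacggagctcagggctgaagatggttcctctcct
Lrrc15: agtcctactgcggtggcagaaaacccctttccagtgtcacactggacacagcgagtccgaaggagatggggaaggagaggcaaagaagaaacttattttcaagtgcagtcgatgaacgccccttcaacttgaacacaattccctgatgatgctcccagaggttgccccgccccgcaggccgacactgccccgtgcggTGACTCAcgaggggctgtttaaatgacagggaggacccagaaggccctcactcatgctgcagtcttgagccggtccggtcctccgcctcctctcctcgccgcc

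The structural matrix was higher across whole gene lists. The fibril-forming collagens together made up 63102 CPM of score-high spots and 31304 CPM of the others, a log2 ratio of 1.01 (0.99 to 1.03). Of 8 members tested, 3 were past 2 times higher and none lower, with a median log2 ratio of 0.95 beside -0.03 for all genes. The 3 were Col3a1 (9755 against 3814 CPM), which is prominent in early scars, and Col5a1 and Col5a2 (1156 against 517 and 758 against 251 CPM), which regulate fibril width. Col1a1, the main chain of type I collagen, stood at 29833 against 15745 CPM, and per spot at a median of 26389 against 14393 CPM. Col11a1 stood at 37.2 against 40.0 CPM.

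Of 12 tested members of the other collagens, 4 were past 2 times higher, namely Col6a2, Col6a3, Col8a1 and Col14a1, and the list stood at 5049 against 2673 CPM. Of 19 tested enzymes and chaperones that fold, trim and crosslink collagen, 4 were higher and 1 lower. Among them, the lysyl oxidase Loxl1 stood at 407 against 160 CPM, the procollagen enhancer Pcolce at 459 against 224 CPM and the collagen chaperone Serpinh1 at 1562 against 802 CPM. Pcolce2, on 8 UMIs in score-high spots, stood at 14.2 against 30.2 CPM. Prolyl hydroxylase P4ha1 stood at 86.8 against 71.7 CPM.

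Matricellular genes had the widest list ratio of the matrix lists, 11053 against 4791 CPM (log2 1.21, 1.16 to 1.25), with 7 of 18 tested members past 2 times higher and none lower. Beside Postn and Ccn3, these held Cthrc1 (308 against 100.1 CPM), a secreted protein of activated fibroblasts, Sparc (7542 against 3210 CPM), which binds collagen, and fibronectin Fn1 (572 against 234 CPM). Osteopontin (Spp1) stood at 211 against 188 CPM and Ccn2, a TGF beta target also named CTGF, at 115 against 78.9 CPM. Of 10 small leucine-rich proteoglycans tested, 4 were past 2 times higher. Lumican (Lum) stood at 1423 against 699.9 CPM and decorin (Dcn) at 721 against 546 CPM.

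Of 15 elastic fibre genes tested, 8 were past 2 times higher, the largest share among the matrix lists. These were Fbn1, Fbn2, Fbln2, Fbln5, Efemp2, Emilin1, Mfap2 and Mfap4, which encode the microfibrils and the proteins that link them. Elastin itself (Eln) stood at 455 against 341 CPM (log2 0.42, 0.22 to 0.61), and its median per spot was 331 CPM against 285 CPM. Of 21 matrix proteases and inhibitors tested, Mmp11, Mmp23 and Adam12 were past 2 times higher and none lower. Gelatinase Mmp2 stood at 531 against 289 CPM and the inhibitor Timp3 at 235 against 178 CPM. Of 3 hyaluronan genes tested, Tnfaip6 was past 2 times higher (42.5 against 15.6 CPM), and the hyaluronan receptor Cd44 stood at 191 against 209 CPM.

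**Figure D3:**
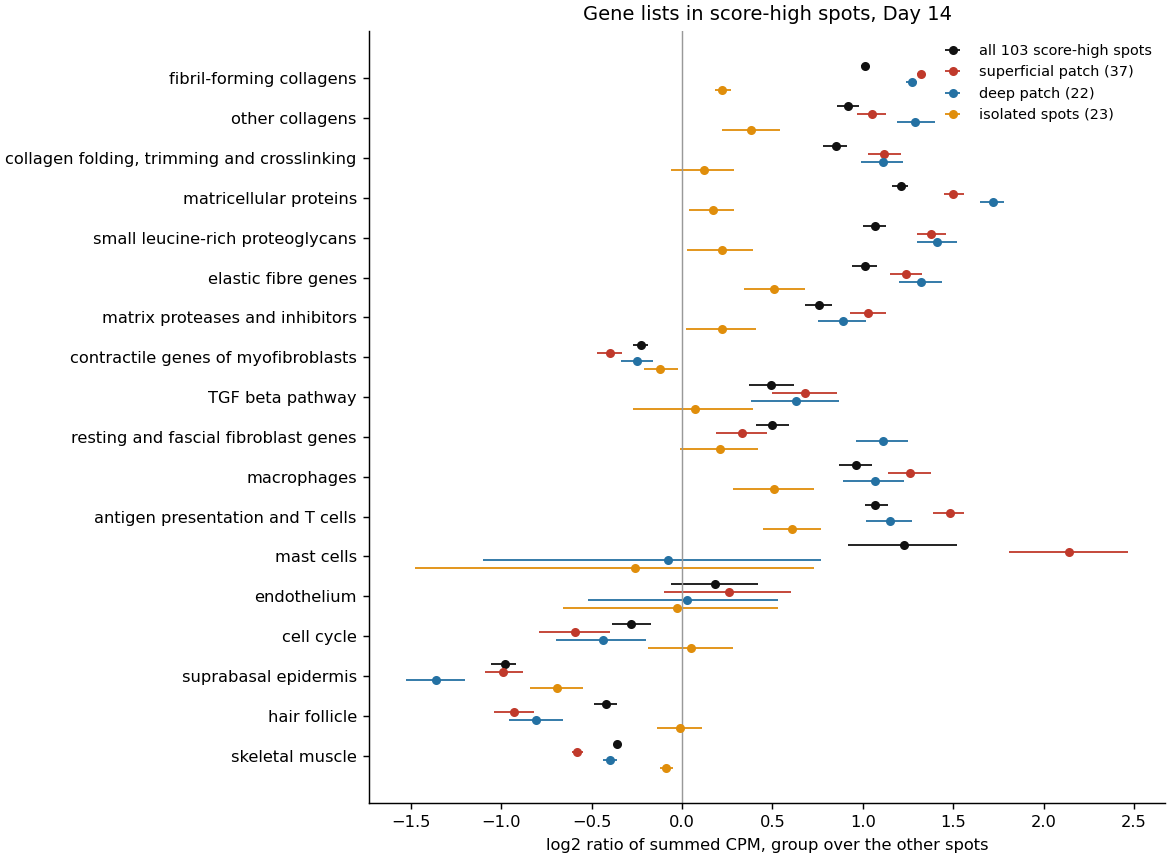
Log2 ratio of the summed CPM of 18 gene lists, each group of score-high spots over the other spots of the Day 14 section; bars are 95% intervals for counting error only. The matrix lists lie between 0.76 and 1.21 for all score-high spots and are higher in both large patches than in the isolated spots, and the mast cell list is high in the superficial patch alone (log2 2.14).

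The contractile genes of myofibroblasts were mixed, and their summed list was not higher. Of 11 tested, 1 was past 2 times higher, Cdh11, a cadherin of fibroblasts, at 255 against 117 CPM. Smooth muscle actin Acta2 stood at 212 CPM (log2 0.33, 0.04 to 0.61) against 169 CPM, with a median per spot of 173 against 78.6 CPM, and was detected in 64 of 103 score-high spots and 310 of 586 others. Cnn2 stood at 129 against 84.8 CPM (log2 0.61, 0.22 to 0.98) and Cald1 at 122 against 91.2 CPM (log2 0.42, 0.03 to 0.80). Tagln stood at 49.6 against 64.0 CPM and Myl9 at 60.2 against 79.9 CPM, with intervals of the ratio that include equal levels. The same held for Actn1 (103 against 132 CPM), Cnn1 (10.6 against 18.8 CPM) and Flna (547 against 486 CPM). The summed list, at 8656 against 10137 CPM, was dominated by Tpm1 and Tpm2 (6036 against 7160 and 1128 against 1731 CPM), tropomyosins that skeletal muscle also makes. Of 13 TGF beta pathway genes tested, 3 were past 2 times higher: the ligands Tgfb1 (70.8 against 30.2 CPM) and Tgfb3 (47.8 against 22.5 CPM), and the integrin subunit Itgb5 (228 against 109 CPM), part of a receptor that releases latent TGF beta.

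The study named several fibroblast states from single-cell libraries, and its genes for them were compared in the same spots. These lists come from the study's own data and are no independent evidence of direction. For the remodelling fibroblasts F1 and F4, 3 of 14 genes were past 2 times higher (Mfap4, the cartilage intermediate layer gene Cilp and the growth factor Igf1) and 1 lower (Pcolce2). Their list stood at 3118 against 1785 CPM (log2 0.80, 0.73 to 0.88), of which Mfap4 alone made up 1351 against 443 CPM. For the granulation fibroblasts F2 and F6, without the score genes, 2 of 7 were higher, Postn and Cdh11. Their list stood at 9794 against 8884 CPM (log2 0.14), of which Tpm1, also a gene of skeletal muscle, made up 6036 against 7160 CPM. The median log2 ratio of single genes was 0.55 for F2 and F6 and 0.40 for F1 and F4, the reverse order of the sums. Of 8 tested candidate genes of the study, 3 were past 2 times higher: Itgbl1 (122 against 48.7 CPM), Lrrc17 (39.0 against 13.8 CPM) and the chemokine Ccl7 (44.3 against 22.0 CPM). Of 12 genes of resting and fascial fibroblasts, Cd248 and dermatopontin (Dpt) were past 2 times higher, at 249.6 against 116 and 320.5 against 125 CPM.

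In the IGF system, 2 of 10 tested genes were past 2 times higher, Igfbp2 and the ligand Igf1 (79.7 against 38.8 CPM), and Igfbp4 stood at 370 against 389 CPM. Of 6 Wnt antagonists tested, Sfrp2 (103 against 47.0 CPM) and Dkk3 (104 against 38.6 CPM) were past 2 times higher, and Sfrp1 stood at 74.4 against 107 CPM. In the secretory pathway 2 of 16 were past 2 times higher, Ckap4 and Kdelr3 (145 against 64.5 and 67.3 against 28.4 CPM), while the chaperone Hspa5 stood at 464 against 417 CPM. No gene of the glycolysis list (16 tested) or the cell cycle list (14 tested) was past 2 times in either direction. The cell cycle list summed to 1246 against 1513 CPM, and its proliferation marker Mki67 stood at 92.1 against 128 CPM.

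Genes of macrophages and antigen presentation were higher than in the other spots, by less when matrix-rich spots alone were compared, as given with that comparison. The macrophage list stood at 2316 against 1191 CPM (log2 0.96, 0.87 to 1.05), with 5 of 12 tested members past 2 times higher than in the other spots as a whole: the complement genes C1qa, C1qb and C1qc, the lysozyme Lyz2 and the cathepsin Ctss. The list of antigen presentation and T cells stood at 4423 against 2106 CPM, with 2 of 8 past 2 times higher, Cd74 (1330 against 526 CPM) and H2-Eb1, and the natural killer gene Nkg7 lower on 3 UMIs. Of the T cell receptor genes, Cd3e stood at 26.6 against 17.8 CPM (log2 0.58, -0.33 to 1.39) and Trbc2 at 24.8 against 25.0 CPM (log2 -0.01, -0.93 to 0.80), both on 15 UMIs or fewer in score-high spots. None of 4 neutrophil genes tested was past 2 times, and S100a8 stood at 15.9 against 17.3 CPM. The mast cell list stood at 223 against 95.4 CPM, with 4 of 5 tested past 2 times higher, the proteases Cpa3, Mcpt4, Cma1 and Tpsb2.

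Vessel and nerve lists differed among themselves. Of 10 endothelial genes tested, 1 was past 2 times higher, the junction gene Cldn5 (21.2 against 9.64 CPM), and Pecam1 stood at 37.2 against 44.7 CPM. Of 2 lymphatic genes tested, podoplanin (Pdpn, also made by fibroblasts) was past 2 times higher, and the list stood at 320.5 against 183 CPM (log2 0.80, 0.56 to 1.04). Lyve1 and Prox1, under the minimum, had no UMI in the 103 score-high spots and were detected in 11 and 8 of the 586 others. Flt4 and Reln, also under it, were detected in 5 and 5 score-high spots and in 17 and 26 others. Of 7 pericyte genes Cspg4 was lower (15.9 against 33.4 CPM). The Schwann cell list stood at 413 against 473 CPM pooled. Its median per spot was 349 against 255 CPM, and its highest spot 2291 against 71776 CPM. In the epidermal lists, 0 of 8 basal, 4 of 8 suprabasal and 2 of 5 wound epidermis genes were past 2 times lower. The keratins Krt5 and Krt14 stood at 1354 against 1980 and 1542 against 2237 CPM pooled. Their medians per spot were 1300 against 1204 and 1410 against 1440 CPM, and that of the basal list was 4682 against 4689 CPM. Hair follicle genes, 0 of 12 past 2 times in either direction, summed to 4031 against 5403 CPM. Of 10 sebaceous gland genes, 2 were past 2 times lower, Cidea and Defb8. Fat genes (0 of 10) summed to 1859 against 2113 CPM and tendon and cartilage genes (0 of 5) to 266 against 307 CPM, and of 5 dermal papilla and sheath genes Crabp1 was past 2 times higher (127 against 50.9 CPM).

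RNA of tissues outside the dermis was present in every score-high spot. The skeletal muscle list made up 52206 CPM of score-high spots and 66816 CPM of the others, and per spot it ran from 25827 to 160829 CPM with a median of 53362. No score-high spot was among the 10% of spots richest in muscle genes. The suprabasal epidermis list had a median per spot of 3034 CPM in score-high spots and 3203 CPM in the others. 

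The superficial and deep patches held similar levels of fibril-forming collagens and differed in a set of other genes. The other collagens stood at 5539 CPM in the superficial and 6542 CPM in the deep patch, and among them Col8a1 at 17.4 and 303 CPM. Fibril-forming collagens stood at 78075 CPM in the superficial patch and 75572 CPM in the deep patch, against 36577 CPM in the isolated spots and 31304 CPM in the other spots. Postn stood at 1894 and 2386 CPM in the patches and 398 CPM in the isolated spots. The small leucine-rich proteoglycans stood at 5804 and 5927 CPM, and the elastic fibre genes at 4835 and 5108 CPM. Each patch alone was compared with the other spots: 582 of 9793 genes (5.94%) were past 2 times higher in the superficial patch and 749 of 9709 (7.71%) in the deep one, and 1122 (11.5%) and 1847 (19.0%) past 2 times lower, counts that grow as fewer UMIs are pooled. Of the 281 genes higher in all score-high spots, 239 were past 2 times higher in the superficial patch, 186 in the deep patch, 149 in both, and 62 in the isolated spots.

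**Figure D4:**
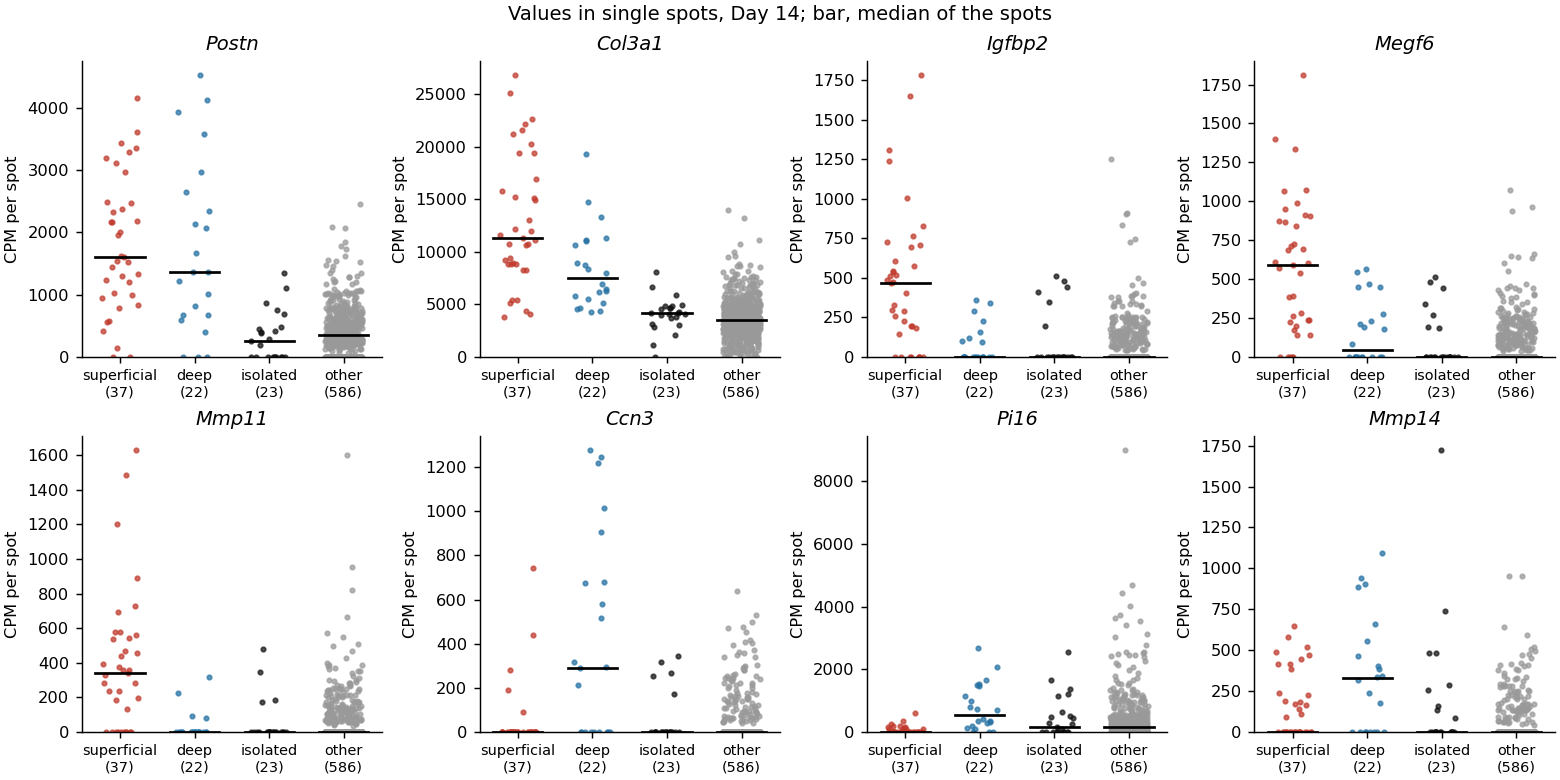
CPM of 8 genes in single Day 14 spots of the superficial patch, the deep patch, the isolated score-high spots and the other spots; each point is a spot and each bar the median of the spots. Postn and Col3a1 are high in both patches, Igfbp2, Megf6 and Mmp11 in the superficial patch and Ccn3, Pi16 and Mmp14 in the deep patch, and points of the groups overlap in every panel.

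Between the patches, 1074 genes had 50 or more UMIs, of which 41 (3.82%) were at least 2 times higher in the superficial and 19 (1.77%) in the deep patch. These genes are named by the interval bound nearer to equal levels, a contrast chosen after the patches had been seen. The superficial patch was led by Igfbp2, at 626 CPM against 82.0 CPM in the deep patch and 69.5 CPM in the other spots. Per spot Igfbp2 ran from 0 to 1782 CPM with a median of 465 in the superficial patch, where 29 of 37 spots held it, and from 0 to 356 CPM with a median of 0 in the deep patch, where 8 of 22 did. Mmp11 stood at 430.1 against 49.2 CPM, Megf6 at 673 against 148 CPM and Prss35 at 378 against 73.8 CPM. The serine protease Htra1 stood at 1281 against 409.9 CPM, and Mfge8, which bridges dying cells to phagocytes, at 795 against 221 CPM.

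Further genes of the superficial patch are known from several cell types, and which cells of these spots held them was not tested. Col7a1, the collagen of anchoring fibrils beneath the epidermis, stood at 473 against 123 CPM. Crabp1, a retinoic acid binding protein also used as a dermal papilla marker, stood at 248 CPM against 24.6 CPM on 3 UMIs, while the median log2 ratio of the 5 dermal papilla and sheath genes, superficial patch over the other spots, was -0.86. Gpnmb, made by macrophages and pigment cells, stood at 361 against 65.6 CPM, and the peptide-processing enzyme Cpe at 921 against 246 CPM. Mast cell genes summed to 421 CPM in the superficial patch, 90.2 CPM in the deep patch, 79.6 CPM in the isolated spots and 95.4 CPM in the other spots. Without the superficial patch, the mast cell list of the score-high spots was at a log2 ratio of -0.14 to the other spots, in place of 1.23.

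The same patch carried much of several leading values. Without its 37 spots, the log2 ratio of Mmp11 was -0.34 in place of 1.92, that of Igfbp2 0.16 in place of 2.12, that of Adam12 0.20 in place of 2.03, that of Megf6 0.58 in place of 2.14 and that of Prss35 0.70 in place of 2.49. Postn, at 1.46 in place of 1.79, Mmp23, at 1.56 in place of 1.75, and Fkbp10, at 1.33 in place of 1.88, stayed past 2 times. The candidate gene Itgbl1 stood at 187 CPM in the superficial patch, 131 CPM in the deep patch and 49.8 CPM in the isolated spots.

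The deep patch was led by Myl4, at 435 against 13.0 CPM, and Ccn3, at 566 against 21.7 CPM. Ccn3 ran per spot from 0 to 1278 CPM with a median of 290.1 and was detected in 13 of 22 deep spots, against 5 of 37 superficial ones. Myl4 was detected in 7 of the 22 deep spots, and 11.6% of its UMIs over the section came from 1 spot. Pi16, a marker of fascial and adventitial fibroblasts, stood at 648 CPM in the deep patch, 78.2 CPM in the superficial patch and 259.8 CPM in the other spots. Clec3b (tetranectin), at 369 against 47.8 CPM, Mfap5, a microfibril protein of the fascia, at 385 against 73.8 CPM, and Igfbp6, at 344 against 99.9 CPM, lay the same way. The list of resting and fascial fibroblasts stood at 3451 CPM in the deep patch and 2016 CPM in the superficial one, a log2 ratio of superficial over deep of -0.78 (-0.97 to -0.58).

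Noncoding RNAs were part of the deep set. The nuclear RNA Malat1 stood at 1336 against 222 CPM, the small cytoplasmic RNA Bc1 at 1968 against 256 CPM and the imprinted RNA H19 at 418 against 109 CPM. Gxylt2, a xylosyltransferase, stood at 319.7 against 82.5 CPM. In the other spots Malat1 stood at 531 CPM and Bc1 at 680.3 CPM. Median depth was 5580 UMIs a spot in the superficial and 4254 UMIs in the deep patch. The part of depth or RNA quality in this difference was not tested.

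The score genes split between the patches as well, again as a description. Thbs2 stood at 943 CPM (821 to 1077) in the superficial patch and 369 CPM (269 to 494) in the deep one, while Mmp14 stood at 182 CPM (131 to 247) and 435 CPM (325 to 568). Lrrc15 stood at 586 and 246 CPM, and Col12a1 at 426 and 443 CPM. Tnc stood at 291 and 353 CPM. The summed score, 3119 against 3033 CPM, did not tell the patches apart. Cthrc1, no score gene, stood at 352 CPM in the superficial and 615 CPM in the deep patch, and the follistatin-like gene Fstl1 at 691 and 1369 CPM.

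Isolated score-high spots held less of the matrix lists than the patches. In these 23 spots, 607 of 9687 genes (6.27%) were past 2 times higher than in the other spots and 1498 (15.5%) past 2 times lower. By the bound nearer to equal levels, the first 3 were the muscle myosin Myh1 (1643 against 805 CPM), Bc1 (1344 against 680.3 CPM) and Scarf2 (229 against 88.3 CPM). Next came the epidermal gene Flg (428 against 189.9 CPM), and no collagen was among the first 10. The matricellular list was at a log2 ratio of 0.17 and the fibril-forming collagens at 0.22. Bgn at 876 CPM and Mfap4 at 727 CPM stood above the other spots' 522 and 443 CPM, whereas Postn (398 against 423 CPM), Aspn (89.6 against 124 CPM) and Cthrc1 (89.6 against 100.1 CPM) did not. The small patches held 35362 CPM of fibril-forming collagens and the patch of 8 spots stood at 55272 CPM.

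Many other spots of the section are rich in collagen without a high score, so the score-high spots were also set against them. Spots at or above the section's median share of Col1a1, Col1a2, Col3a1, Sparc, Dcn and Lum numbered 257 among the others, and 88 of the 103 score-high spots passed the same limit. Of 7667 genes, 89 (1.16%) were at least 2 times higher in score-high spots than in these matrix-rich spots and 116 (1.51%) at least 2 times lower. Of the 89, 79 were also among the 281. The leading 5 were Prss35 (186 against 43.2 CPM), Igfbp2 (301 against 86.9 CPM), Megf6 (343 against 103 CPM), Postn (1461 against 541 CPM) and Mmp11 (200.1 against 69.4 CPM). At the other end were Krt10 (627 against 1172 CPM), the lipid desaturase Scd3 (76.1 against 165 CPM), Btbd3 (19.5 against 56.3 CPM), Rarres1 (90.3 against 186 CPM) and Defb8 (33.6 against 82.5 CPM). The matrix lists kept their direction at smaller size, with log2 ratios of 0.53 for fibril-forming collagens, 0.80 for matricellular proteins, 0.73 for small leucine-rich proteoglycans and 0.68 for elastic fibre genes. Of the immune genes past 2 times, few were so in this comparison: 0 of 11 macrophage genes tested, 0 of 6 antigen presentation and T cell genes and 1 of 3 mast cell genes. The log2 ratios of these lists were 0.57, 0.66 and 0.82.

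The same rule was applied to the earlier sections so that levels could be set side by side, with no test between days. It chose 78 of 520 spots on Day 3, at a lowest score of 2903 CPM, and 81 of 539 on Day 7, where the lowest score was 4996 CPM. The Day 14 limit of 1908 CPM was the lowest of the 3. Even the other spots of Day 7 held more score RNA, 3295 CPM pooled, than the score-high spots of Day 14, at 2804 CPM. The rule thus takes spots of unlike score level on each day, and the spots they are compared with differ as well. On Day 7, 62 of the 81 lay in 1 patch. The score-high spots of Day 7 held a median of 13158 UMIs against 5972 UMIs in the rest of their section. On Day 3, 544 of 5629 genes (9.66%) were past 2 times higher and 738 (13.1%) lower, and on Day 7, 129 of 9412 (1.37%) and 559 (5.94%).

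**Figure D5:**
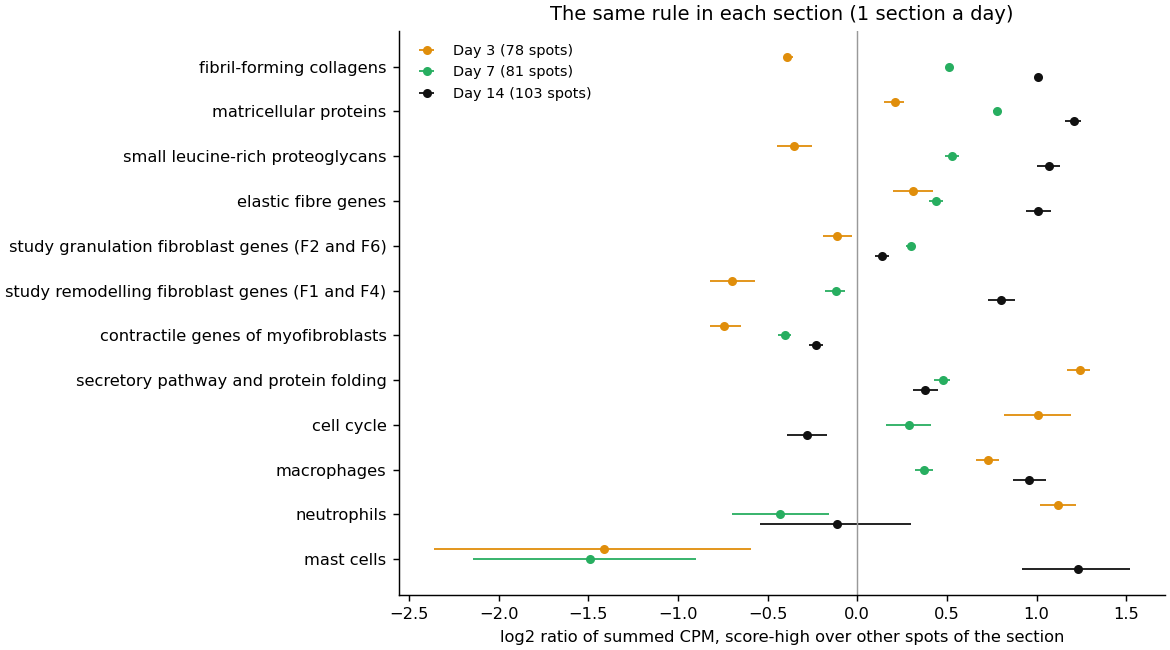
Log2 ratio of the summed CPM of 12 gene lists in the score-high over the other spots of the same section, for Day 3, Day 7 and Day 14, 1 section each; bars are 95% intervals for counting error only. Fibril-forming collagens lie at -0.39, 0.51 and 1.01, the F1 and F4 genes at -0.70, -0.12 and 0.80, and mast cells at -1.41, -1.49 and 1.23. The mast cell ratios rest on 13, 26 and 126 UMIs in score-high spots. A ratio also moves with the other spots: in score-high spots, fibril-forming collagens stood at 39474, 86682 and 63102 CPM, highest on Day 7.

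Score-high spots of Day 14 held less Postn than those of Day 7, 1461 against 6238 CPM, and more than those of Day 3, 458 CPM. Tnc stood at 379, 1667 and 313 CPM on Days 3, 7 and 14, Col12a1 at 274, 1810 and 382 CPM, Col3a1 at 6184, 19708 and 9755 CPM and Prss35 at 2.71, 530.5 and 186 CPM. Mfap4 stood at 73.1, 804 and 1351 CPM and Igfbp2 at 10.8, 31.1 and 301 CPM, so both were highest on Day 14. Timp1 stood at 1977, 309.7 and 133 CPM and Plod2 at 86.7, 26.0 and 5.31 CPM, so both were lowest there. Ccn3 had 0 UMIs on Day 3, which allows up to 9.99 CPM, and stood at 32.7 and 152 CPM on Days 7 and 14.

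Contractile genes went different ways within the Day 7 section. Of 11 tested, 3 were past 2 times higher and 1 lower, and the summed list was lower in score-high spots, 7628 CPM beside 10087 CPM (log2 -0.40). In the score-high spots of Day 7 Acta2 stood at 708 CPM, beside 388 CPM in the other spots of that section, while the Day 14 values were 212 and 169 CPM. For Tagln the Day 7 levels were 259 and 91.7 CPM and the Day 14 levels 49.6 and 64.0 CPM, and for Myl9 they were 347 and 146 CPM, then 60.2 and 79.9 CPM. The tropomyosins, which make up most of the sum, lay the other way on Day 7, with Tpm1 at 3534 and 6340 CPM and Tpm2 at 756 and 1585 CPM. The score-high spots of Day 3 held Tagln at 13.5 CPM and Acta2 at 103 CPM. Between-day differences rest on 1 section each and were not tested, and day, animal and section cannot be told apart.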

How the data were processed

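Visium libraries of 1 frozen section a day were sequenced by the authors, who processed them with Space Ranger 1.3.0 against mm10 per the labels. Which annotation release they used is not given in the sources used here. As deposited, the matrices hold raw UMI counts for 32285 genes over all 4992 spots of a slide, with a position list that marks tissue spots. Spots marked as tissue with 500 or more UMIs were used. Counts were pooled over spots and divided by total UMIs (CPM), with exact 95% intervals for counting error. No test was run, since 1 section a day gives no replicate. Genes were called at 2 times with 50 or more UMIs over both groups, and named as the 15 highest and 15 lowest by the interval bound nearer to equal levels among genes with 100 or more UMIs, as the 5 and 5 against matrix-rich spots, and from 36 gene lists by abundance, extreme ratio or role. Of 408 list genes, 1 was not found in the files. Of the 15 lowest, 1 gene is not reported here. Members and lists were chosen with earlier results of these data known. Spots were clustered by nothing but the score, no doublet call was made, and the study's annotation of wound sites is not used here. Python 3.11.15, numpy 2.4.6, scipy 1.17.1 and R 4.3.3 with edgeR 4.0.16 (TMM factors) and DESeq2 1.42.0 (size factors) were used, the last 2 for scaling alternatives only. Ratios were tested on simulated pooled counts that held counting noise only. That check does not cover differences between spots or the choice of spots by score.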

Additional observations from a re-analysis of the deposited data

Results flagged for a closer look

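By the same rule, 14 contrasts of gene lists between score-high and other spots went opposite ways on Day 14 and on an earlier day, with intervals on both sides of equal levels; the differences between days were not tested. On the log2 scale, Day 14 was at 1.01 and Day 3 at -0.39 for fibril-forming collagens, 1.07 and -0.35 for small leucine-rich proteoglycans, 0.14 and -0.11 for the F2 and F6 genes, and 0.40 and -0.37 for the IGF system. These are ratios of summed UMIs. The median log2 ratio of single genes went the same way on both days for fibril-forming collagens (0.95 and 0.24) and for F2 and F6 (0.55 and 0.81). Tpm1 held 4305 of the 6342 F2 and F6 UMIs in the other spots of Day 3. For the proteoglycans and the IGF system the Day 3 medians were -0.72 and -0.44. The F1 and F4 genes were at 0.80 on Day 14, -0.70 on Day 3 and -0.12 on Day 7, and the resting and fascial fibroblast genes at 0.50, -0.19 and -0.24. The study's candidate genes were at 0.40 on Day 14 and -0.30 on Day 7. Cell cycle genes were at -0.28 on Day 14, 1.01 on Day 3 and 0.29 on Day 7, mast cell genes at 1.23, -1.41 and -1.49, and wound epidermis genes at -0.47 on Day 14 and 0.55 on Day 3. The score-high spots of Day 7 were deeper than the rest of their section (13158 against 5972 UMIs a spot) and those of Day 14 were not (4490 against 4899).

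Signal was also present outside the marked tissue of the Day 14 slide. Of 1780 unmarked spots with 500 or more UMIs, 180 (10.1%, exact interval 8.75 to 11.6%) reached the lowest score of the score-high spots. They held a median of 949 UMIs and 3 UMIs of the score genes, their fibril-forming collagens stood at 72889 CPM against 18403 CPM in the remaining unmarked spots, and 7 of them lay within 1.5 pitches of a marked spot.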

How the results depend on the processing

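As reported, 281 was the number of genes called higher in score-high spots and 340 that of genes called lower in score-high spots. The counts were 407 and 613 with the top 10% of spots, 247 and 207 with the top 20%, 229 and 216 with a z-scored score, 115 and 171 with spots thinned to 1000 UMIs before scoring, and 437 and 743 with spots chosen by one random part of the UMIs and measured in the rest, with the gene minimum scaled down to match. They were 89 and 116 against matrix-rich spots, 126 and 134 against other spots outside the hair-, epidermis- or muscle-rich ones, and 485 and 747 with members that had 2 or more adjacent members. They were 519 and 711 at a minimum of 20 UMIs, 168 and 127 at 100, 1640 and 3539 with no minimum, and 967 and 1128 at 1.5 times. In alternatives chosen after seeing the data, they were 505 and 806 with the 2 largest patches alone, and 255 and 577 without the largest patch. TMM factors, DESeq2 size factors, other totals, mean of spot CPM, a minimum of 1000 UMIs and each score gene left out kept both counts within 1.5 times. The share in the 2 largest patches was 71.7% with the top 20% and 26.5% after thinning, in place of 57.3%. The 180 unmarked spots became 83 at 1000 UMIs.

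Ratios that turned were small in most cases. Schwann cell genes, at -0.20, were at 0.10 with the top 20%, 0.05 with the z-scored score, 0.16, 0.20 and 0.09 without Thbs2, Col12a1 and Lrrc15, 0.18 in the UMIs that did not choose the spots and 0.01 without the largest patch. Without that patch mast cell genes were at -0.14, Mmp11 at -0.34 and fat genes at 0.03. The F2 and F6 genes were at -0.16 as a mean over spots, cell cycle genes at 0.00 with the z-scored score, and wound epidermis genes at 0.01 and dermal papilla genes at -0.01 after thinning. Hair follicle genes were at 0.05 against other spots outside the rich ones, where hair-rich spots had been taken out of the other spots alone. Gtf2e2 had no value without the largest patch. The causes were not tested. No paired analysis was possible because each day has 1 section.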
